A study of Homo sapiens with 12 samples.

Results

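The HES genes encode a family of 7 transcriptional repressors, HES1 to HES7, and are the genes most often read as the output of Notch signalling. All 7 were taken whatever their values, and every Notch3 ChIP-seq peak whose summit lay no farther than 100 kb from one of these genes on build hg38 was collected. This gave 13 peaks out of 12583 in all, and each of the 13 came from cells that carried the Notch3 intracellular domain. Those cells also had the longer peak lists throughout, 2226 to 3397 peaks per library against 1219 to 1718 in cells without it. In chromatin immunoprecipitation and sequencing (ChIP-seq), DNA bound to a chosen protein is recovered with an antibody and sequenced, and sites with more fragments than their surroundings are listed as peaks.

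The starting cells were neural crest cells derived from the human embryonic stem cell line H9, so all libraries share 1 genetic background. They received either a lentivirus for GFP alone (the GFP group, labelled neural crest) or a lentivirus for N3ICD with GFP (the N3ICD group, labelled mural, as pericytes and smooth muscle cells of vessels are called), and were fixed in 1% formaldehyde at 6 days. The same Notch3 antibody was used in both groups, each group had 3 ChIP libraries (A, B, C), and the series text speaks of 3 independent differentiations. The promoter of the lentivirus was not given in the sources used here, N3ICD was supplied rather than released by ligand, and peak lists do not measure expression, so the labelled cell types were not checked.

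Notch receptors are cut after ligand binding, and the freed intracellular domain enters the nucleus, where it joins RBPJ, a DNA-binding protein, and coactivators of the Mastermind family at genes whose regulatory DNA holds the RBPJ core letters TGGGAA. HES proteins are basic helix-loop-helix repressors of the Orange class. They bind DNA as dimers and recruit Groucho (TLE) corepressors through a short motif at their end, and in mouse Hes1 and Hes5 hold neural progenitors undifferentiated by silencing proneural genes. In brain vessels NOTCH3 is the Notch receptor best known from pericytes and smooth muscle.

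Peaks called at HES4 covered an RBPJ core match just before the start site. HES1, HES3 and HES5 held such matches there with no called peak over them. The 3 sequences that held the longer form GTGGGAA, those of HES4, HES1 and HES5, are shown first. Each is the 250 bases before the start of the gene, taken from RefSeq on GRCh38.p14, written 5′ to 3′ on the strand of the gene, with the RBPJ core TGGGAA, or its reverse complement TTCCCA, in capitals. HES4 is from chr1:1000098-1000347 (minus strand), HES1 from chr3:194135898-194136147 (plus strand) and HES5 from chr1:2530264-2530513 (minus strand).
HES4: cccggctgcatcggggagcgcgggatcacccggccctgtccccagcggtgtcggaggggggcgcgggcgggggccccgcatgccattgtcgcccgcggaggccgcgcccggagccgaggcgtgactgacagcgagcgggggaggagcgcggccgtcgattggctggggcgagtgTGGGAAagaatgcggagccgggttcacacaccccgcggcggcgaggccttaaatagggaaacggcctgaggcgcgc
HES1: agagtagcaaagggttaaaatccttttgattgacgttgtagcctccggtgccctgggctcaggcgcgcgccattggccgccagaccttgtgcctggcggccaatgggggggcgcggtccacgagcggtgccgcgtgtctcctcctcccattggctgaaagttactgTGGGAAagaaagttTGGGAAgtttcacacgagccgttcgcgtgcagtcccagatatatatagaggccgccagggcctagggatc
HES5: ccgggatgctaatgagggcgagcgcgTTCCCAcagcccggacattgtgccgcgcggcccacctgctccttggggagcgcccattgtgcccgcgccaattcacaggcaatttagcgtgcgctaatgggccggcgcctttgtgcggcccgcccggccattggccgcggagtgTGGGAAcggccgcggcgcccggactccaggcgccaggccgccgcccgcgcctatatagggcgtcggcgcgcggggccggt

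The files show 6 libraries of 1219 to 3397 peaks. The GFP libraries had 1219 to 1718 and the N3ICD libraries 2226 to 3397. The pileup of a peak is the number of fragments stacked at its summit, and the lowest pileup listed was between 5 and 8 in every library. A site below that limit is simply not in the list, so a gene without a peak is a gene where none was called. The background pileup that the authors' values imply genome-wide, the only measure of depth here, ran from 0.93 to 1.9 fragments. NOTCH3 itself had 2, 1 and 1 summits within 10 kb with N3ICD (A, B and C) and none with GFP. Summits that near in 2 or 3 of the N3ICD lists, with none for GFP, were found at 3.93% of all genes. The count at this 1 gene therefore cannot check the labels.

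HES4 had peaks in its window in all 3 N3ICD libraries, HES1 in A and C, HES6 in C alone and HES7 in B alone, whereas no library had a peak at HES2, HES3 or HES5. Summed over the family the N3ICD libraries A, B and C held 4, 3 and 6 peaks and the GFP libraries 0, 0 and 0, or 4.33 ± 1.53 and 0 ± 0 (SD, n = 3 each). The groups did not overlap, and neither did the whole lists, 1219 to 1718 peaks with GFP and 2226 to 3397 with N3ICD. Of all genes taken singly, 2.97% had such a separation with N3ICD higher. The share for sums over as many genes as the family holds was not counted. The family separation is therefore description only. Relative to the size of each list, the family sum was 1.80, 1.20 and 1.77 peaks per 1000 in N3ICD A, B and C, with a mean of 1.59 ± 0.333 (SD, n = 3).

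**Figure D1:**
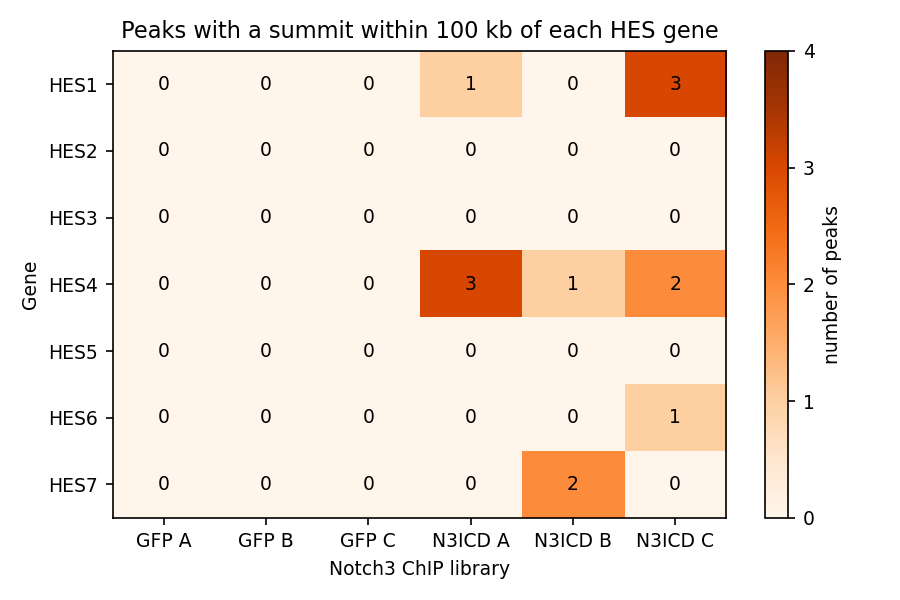
Number of peaks with a summit within 100 kb of each HES gene (rows) in each Notch3 ChIP library (columns); colour and printed number give the count. All 13 peaks are in the 3 N3ICD columns, and HES4 is the only row with a peak in each of them.

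A gene was called N3ICD-only when at least 2 N3ICD libraries and no GFP library had a summit in its window. HES1 and HES4 met this rule, 2 of 7 genes, and 16.7% of all 20033 protein-coding genes met it too. A share so near the background is no result about the family at this distance. At 10 kb the same 2 of 7 genes met the rule, against 3.93% of all genes. No HES gene met the mirror rule for GFP, which 0.899% of genes met at 100 kb and 0.329% at 10 kb. Taken library by library, 2, 2 and 3 of the 7 genes had a peak within 100 kb in the N3ICD libraries A, B and C, where 17.1%, 29.7% and 35.2% of all genes had, and 0, 0 and 0 in the GFP libraries, where 5.47%, 8.05% and 7.7% had. The call at HES1 rests on libraries A and C, and without either of them HES4 alone was called.

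The number of peaks was also compared gene by gene with a two-sided exact permutation test, run on all 20033 genes with Benjamini-Hochberg adjustment. HES4 had 3, 1 and 2 peaks in the N3ICD libraries A, B and C against 0, 0 and 0 with GFP, a difference of 2 peaks and an exact permutation p of 0.1, the smallest that 3 libraries against 3 allow. That p was reached, with N3ICD higher, by 2.97% of all genes. HES1 had 1, 0 and 3 peaks against 0, 0 and 0 (exact permutation p = 0.4). HES7 had 0, 2 and 0 and HES6 0, 0 and 1 (exact permutation p = 1 for each). Every adjusted p was 1, no gene of the 20033 had an unadjusted p under 0.05, and this design cannot give one. With 10 kb in place of 100 kb, the difference at HES4 was 0.667 peaks (exact permutation p = 0.4).

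HES4, a HES gene that mouse lacks, gave the site that was found again. Its gene spans chromosome 1, 998964 to 1000097, on the minus strand. N3ICD A had a peak at chr1:999973-1000501 with its summit 43 bp before the start site, and N3ICD C had a peak at chr1:999789-1000352 with its summit 91 bp before it. The 2 peaks overlapped by 380 bp and their summits lay 48 bp apart. Together they formed a region at chr1:999789-1000501, the only one of 200 recurrent N3ICD-only regions (merged from peaks of 2 or more N3ICD libraries and of no GFP library) with a summit in a HES window. Among all genes, 1.01% had a summit of such a region within 1 kb of the gene.

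The summit pileup at the HES4 start was 13 fragments in N3ICD A and 12 in N3ICD C. The fold, the authors' ratio of that pileup to the local background, was 5.30 in A and 4.61 in C. These folds stood at the 98.7th and 82.4th percentile of their libraries, while the pileups stood at the 98.1st percentile in both. The local background at this site was 1.64 fragments in A and 1.82 in C, above the genome-wide 1.27 and 0.93 of those libraries. The −log10 q was 2.68 and 2.11. N3ICD B had no peak at the HES4 start, and the lowest pileup of any peak in that library was 7 fragments. Both peaks were broad for their libraries, 529 bp and 564 bp, at the 98.5th and 96.3rd percentile of length. The nearest other gene, ISG15, a ubiquitin-like protein induced by interferon, lay 13357 bp from the summit in A and 13309 bp from that in C.

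The other 4 peaks in the HES4 window lay closer to other genes. The highest by pileup was in N3ICD A inside PERM1, a regulator of metabolism in muscle, at chr1:976814-977300, with a pileup of 16, a fold of 7.13 and a −log10 q of 6.24. It was 23122 bp from the HES4 start and ranked 6th by fold in its library. A peak of N3ICD C lay 58 bp from the start of KLHL17, an actin-binding kelch protein (chr1:960275-960549; pileup 8, fold 4.67). On the other side, near C1orf159, N3ICD A had a peak at chr1:1079346-1079590 with a pileup of 14 and a fold of 5.65, and N3ICD B had its only peak of the HES4 window at chr1:1079751-1079990 with a pileup of 9 and a fold of 3.29. These peaks of A and B were 160 bp apart and did not overlap. So the presence of HES4 in all 3 N3ICD libraries, which 2.97% of genes share, rests for N3ICD B on a weak peak 79827 bp away, at the 25.4th percentile of fold.

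**Figure D2:**
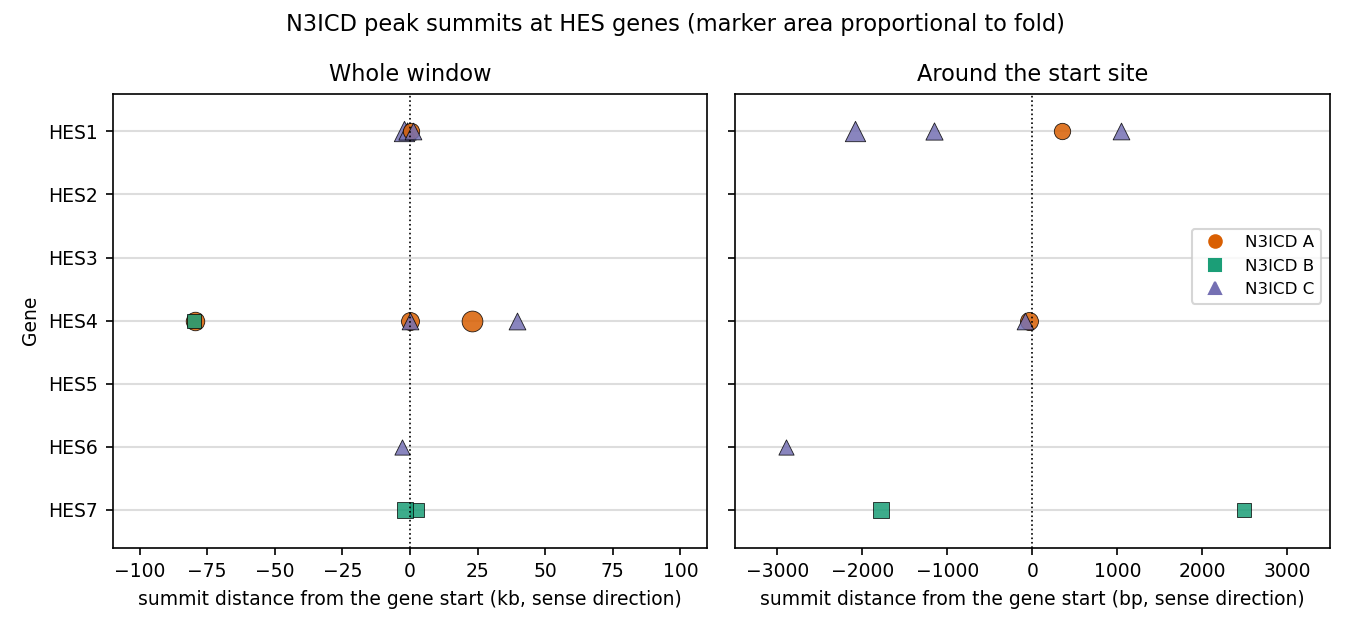
Distance of each N3ICD summit from the start of its HES gene, in kb over the whole window (left) and in bp near the start (right), positive in the direction of transcription; colour and shape give the library, and marker area is proportional to fold. The HES4 summits of A and C nearly coincide at the start, whereas the 4 HES1 summits lie apart.

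HES1, the family member best known as a direct Notch target, had its peaks spread around the start rather than at 1 site. Its gene spans chromosome 3, 194136148 to 194138732, on the plus strand. N3ICD C had 3 peaks. The farthest upstream, at chr3:194133945-194134240 with its summit 2085 bp before the start, had a pileup of 13, a fold of 6.84 and a −log10 q of 5.30, and stood 34th by fold among the 3397 peaks of that library. The next, at chr3:194134848-194135082 with its summit 1154 bp before the start, had a pileup of 11, a fold of 4.88 and a −log10 q of 2.14. The third lay inside the gene at chr3:194136804-194137590, with its summit 1042 bp after the start, and had a pileup of 10, a fold of 4.62 and a −log10 q of 1.70. It was 787 bp long, at the 99.4th percentile of length in its library.

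N3ICD A had 1 peak at HES1, inside the gene at chr3:194136406-194136619, with its summit 354 bp after the start, a pileup of 9, a fold of 4.41 and a −log10 q of 0.877. It was 214 bp long and ended 184 bp before the third peak of C began. No peak of A therefore overlapped a peak of C, and HES1 had no recurrent region. N3ICD B had its nearest summit 120 kb from the gene, just outside the window. The HES1 window held only 1 other protein-coding gene, the predicted LOC102724877, at 12674 bp, and all 4 peaks had HES1 as their nearest gene. Having 3 summits or more within 10 kb was rare in N3ICD C, at 0.205% of all genes, and within 100 kb it was 2.14%. This measure was chosen after the values were seen.

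**Figure D3:**
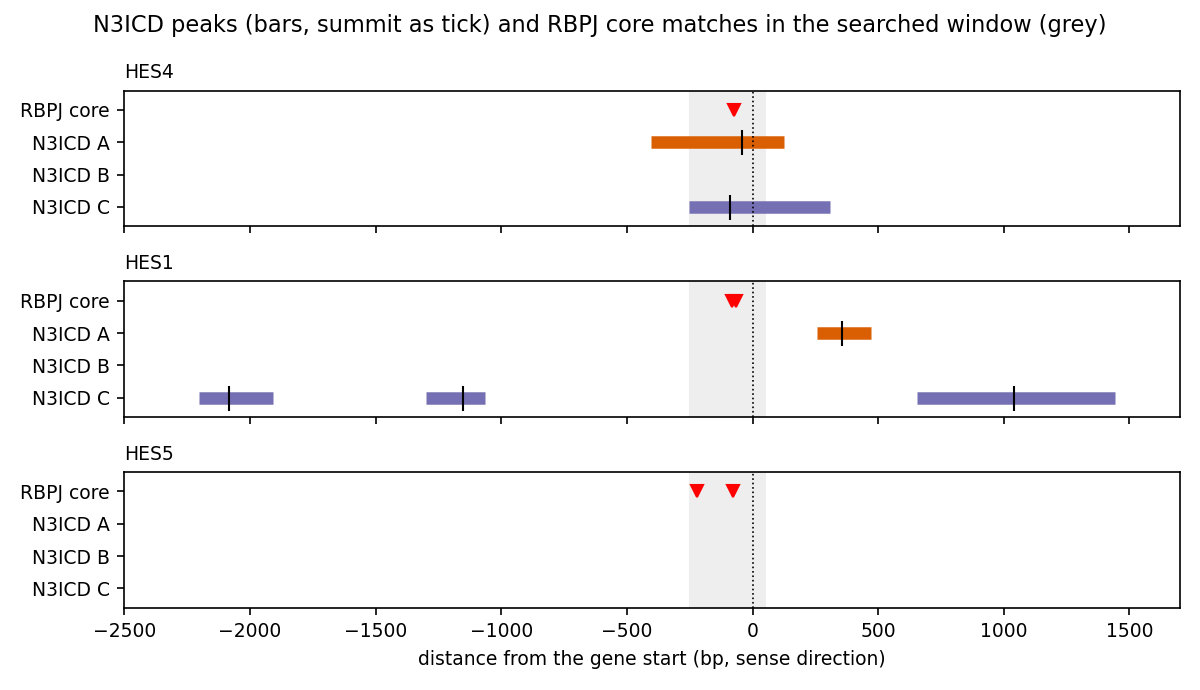
Peaks of the N3ICD libraries (bars, with the summit as a tick) and RBPJ core matches (triangles) at HES4, HES1 and HES5, by distance from the gene start in bp; the grey band is the window of 250 bases before to 50 after the start that was searched. Both HES4 bars cover the match, no HES1 bar does, and HES5 has matches without bars.

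The promoter sequences were then set beside these peaks. RefSeq promoters, from 250 bases before to 50 after the start, were held for all 7 HES genes and for 15842 protein-coding genes. The core TGGGAA was found, on either strand, at HES1, HES3, HES4 and HES5, 4 of 7, and in 22.7% of all these promoters. Its longer form GTGGGAA, which contains the core, was found at HES1, HES4 and HES5, 3 of 7, and in 5.99% of all. In HES4 the core began 76 bases before the start. It lay inside both peaks, 30 bp from the summit of N3ICD A and 18 bp from that of N3ICD C, and the 250 bases printed above were covered whole by each of these peaks.

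HES1 held a pair of cores 84 and 70 bases before its start, both in the direction of the gene and 14 bases apart. Such a pair, counted where cores begin within 30 bases of each other, was found in 0.688% of promoters, and among HES genes at HES1 alone. Only the exact letters TGGGAA were counted. A pair with a variant core, at HES4 or any other gene, was not searched for. No HES1 peak covered the pair: the nearest peak, that of N3ICD A, was 323 bp from the closer core. The peaks at HES1, HES6 and HES7 all lay outside the promoter windows, so the sequence under them was not searched. HES5 held 2 cores, 80 bases before the start in the direction of the gene and 224 bases before it on the other strand, and no library had a peak within 100 kb of that gene. Of the 90 promoters touched by a recurrent N3ICD-only region, 23.3% held TGGGAA and 13.3% held GTGGGAA. A match is a run of letters, not a shown binding site.

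The E-box CACGTG was found in none of the 7 HES promoters and in 8.88% of all. The N-box CACNAG, the kind of site that HES proteins bind, was found at HES1, HES2, HES3 and HES7, 4 of 7, and in 36.4% of all. HES1, which is known in mouse to repress its own promoter, held 4 of them. G and C made up from 59.2% of the 250 upstream bases at HES1 to 77.2% at HES6, with a median of 72.8% over the HES promoters. The median was 62.4% over all promoters and 69.4% over the 90 touched by a recurrent N3ICD-only region. HES1 and HES3, the latter at 61.2%, lay below the median of all promoters, and HES7 was close to it at 63.2%.

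HES7, which drives the segmentation clock of the embryo, had 2 peaks, both in N3ICD B. Its gene spans chromosome 17, 8120592 to 8126634, on the minus strand. The first peak, at chr17:8121471-8121688, had a pileup of 9, a fold of 3.08 and a −log10 q of 0.470, at the 8.47th percentile of fold. The second, at chr17:8125803-8126721, had a pileup of 10, a fold of 4.26 and a −log10 q of 1.24, and was 919 bp long, at the 99.8th percentile of length. It covered the upstream end of the gene as RefSeq spans it, and its summit was 750 bp from that end. The start site of the promoter table lies 2528 bp downstream of that end, and neither peak touched the promoter window there. At least 2 summits within 10 kb in N3ICD B, a measure chosen after the values were seen, were found at 1.09% of genes.

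HES6, which in mouse counteracts Hes1 and favours neuronal differentiation, had 1 peak, in N3ICD C at chr2:238242881-238243116. Its gene spans chromosome 2, 238238267 to 238240038, on the minus strand. The peak had a pileup of 7, a fold of 3.82 and a −log10 q of 0.724, near the middle of its library at the 54.9th percentile of fold. Its summit was 2898 bp before the HES6 start and 1108 bp from PER2, a repressor of the circadian clock, which was the nearer gene.

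**Figure D4:**
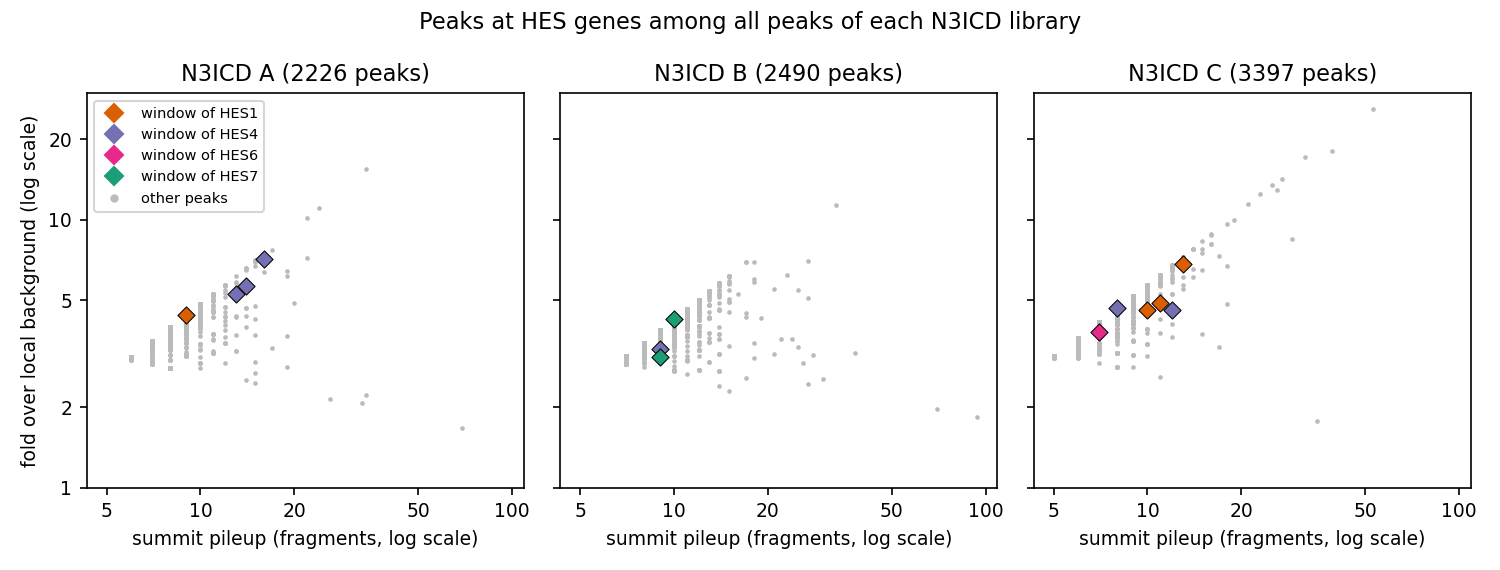
Fold over local background against summit pileup (both on log axes) for every peak of the 3 N3ICD libraries, with the peaks in HES windows as coloured diamonds. The HES peaks have folds from 3.08 to 7.13; the 2 that fall below the middle of their library by fold are in B.

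Set side by side within each library, the folds in HES windows were 4.41 to 7.13 in N3ICD A (4 peaks), 3.08 to 4.26 in N3ICD B (3 peaks) and 3.82 to 6.84 in N3ICD C (6 peaks). Of the 13 peaks, 6 stood at or above the 90th percentile of fold of their library and 2 below the 50th, both of these in B. A −log10 q of 1.3 or more was found at 8 peaks, none of them in B. Over all peaks, 146 of 2226 in A, 352 of 2490 in B and 678 of 3397 in C reached that limit. A −log10 q of 5 or more was found at 2 peaks, those at PERM1 in A and 2085 bp upstream of HES1 in C. By position, 9 of the 13 summits lay within 3 kb of the start of a HES gene, 4 lay inside a HES gene, and 8 had the HES gene as their nearest gene. For the limit of 5 and for position, the shares over all peaks were not counted, so these counts are description only.

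HES2, HES3 and HES5 were without peaks. HES2 (chromosome 1, 6415232 to 6419919) and HES3 (6244179 to 6245578) are neighbours, and HES5 (2528745 to 2530263), a main Notch target of neural progenitors in mouse, lies on the same arm with HES4. The nearest summit to HES2 was 4142, 365 and 126 kb away in N3ICD A, B and C, and to HES3 it was 3971, 539 and 300.2 kb. At HES5 it was 256, 299 and 215 kb. The medians over all genes were 478, 247 and 188 kb in the same libraries. HES3 was farther from a peak than the median gene in all 3 libraries, HES2 in A and B, and HES5 in B and C.

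The GFP libraries had no summit closer than 414 kb to any of the 7 genes, that of GFP B to HES1. At HES1 the nearest GFP summits were 1245, 414 and 1081 kb away in A, B and C, and at HES4 14185, 14438 and 3195 kb. The medians over all genes were 1759, 1065 and 1283 kb. HES1 lay nearer to a GFP peak than the median gene and HES4 farther.

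**Figure D5:**
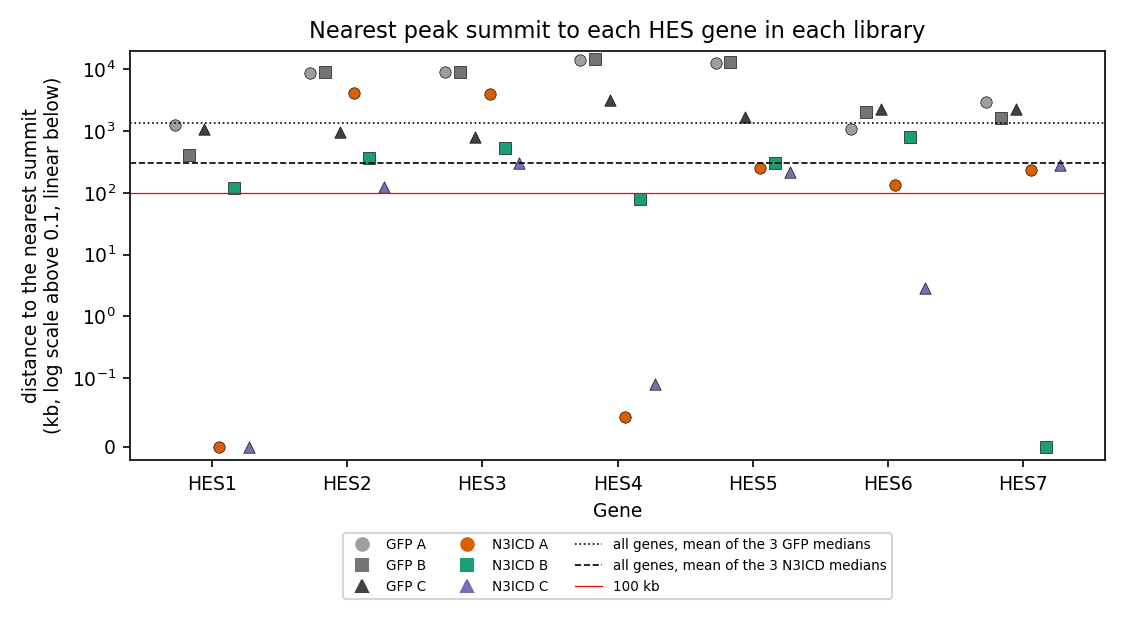
Distance in kb from each HES gene to the nearest peak summit in each of the 6 libraries (log axis above 0.1 kb, linear below; 0 means inside the gene), with the mean of the 3 library medians over all genes for each group and the limit of 100 kb as lines. The lowest GFP point is at 414 kb, and the N3ICD points under 10 kb are at HES1, HES4, HES6 and HES7.

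Relatives and partners of the HES proteins were counted by the same rule, from lists of genes. Of 6 hairy-related repressors, 4 were N3ICD-only at 100 kb and the same 4 at 10 kb (HEY1, HEY2, HEYL and BHLHE40), where 16.7% and 3.93% of all genes were. Summits within 100 kb numbered 1, 1 and 2 at HEY2 in the N3ICD libraries (A, B and C) and 1, 0 and 3 at HEYL. Of 15 Notch receptors, ligands and nuclear cofactors, 9 met the rule at 100 kb and 4 at 10 kb (NOTCH3, NRARP, MAML3 and DLL4). None of the 6 Groucho corepressor genes and none of the 6 proneural genes that HES proteins repress met it. No gene of these lists met the mirror rule for GFP.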

How the data were processed

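Peak lists of the 6 Notch3 ChIP libraries were used; the 6 inputs were not. The submitters' processing notes name MACS3 3.0.0a7, Bowtie2 2.2.1, deepTools 3.5.1, bedtools 2.30.0 and SAMtools 1.11 with build hg38; options and controls are not given in the sources used here. The deposited fold of a peak is a ratio of pileup to local background, and the deposited −log10 p and −log10 q are the peak caller's. The deposited signal is the summit pileup, joined by peak name from the authors' table of all libraries, whose summits equalled those of the lists for all 12583 peaks. These values describe peaks within a library. Read totals were not given; background pileup was computed as (pileup + 1) / fold − 1. Summit positions come from the deposited offsets.

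Positions are 1-based. Peaks overlapping by 1 bp were merged. Protein-coding genes (20033) came from RefSeq, start sites and strands from its promoter table. Tests were two-sided exact permutation tests; the counting was tested on simulated data. Enzymatic digestion favours open chromatin, and its part was not tested. Members and lists were chosen with earlier results of these data known. The named genes are HES1 to HES7, the genes nearest to their peaks, and list genes that met the rule. Software was Python 3.11.15, pandas 2.3.3, numpy 2.4.6 and matplotlib 3.10.9.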

Additional observations from a re-analysis of the deposited data

How the results depend on the processing

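No GFP library had a peak in a HES window, so no setting tried could reverse the family difference, more peaks with N3ICD. The difference of 4.33 peaks per library became 2.67 among peaks with a −log10 q of 1.3 or more, 0.667 at 5 or more, and 2.67 with peaks kept only where the HES gene was nearest. The count of N3ICD-only HES genes, 2, became 1 at a q limit of 1.3 (HES4), 0 at 5, 1 when all 3 N3ICD libraries were required (HES4) and 4 when 1 sufficed. The count of recurrent regions, 1, became 0 at a q limit of 5 and 0 when all 3 libraries were required. HES genes with a higher mean in N3ICD, 4, became 2 at a q limit of 1.3 and 2 at 5. Stricter limits leave fewer peaks by construction. With 1 library left out, the difference ranged from 3.5 to 5 peaks, the N3ICD-only genes from 1 to 2, the recurrent regions from 0 to 1 (0 without N3ICD A or without N3ICD C) and the genes higher in N3ICD from 3 to 4. Taking the replicate letter as a block cannot change a difference of means, so the 4.33 peaks over 4 genes stayed by construction. With that block HES4 had an exact permutation p of 0.25, the smallest that 3 pairs allow. Deviations of same-lettered libraries across genes correlated at 0.0111, −0.00649 and −0.0151 for A, B and C. Between different letters the correlations ran from −0.0164 to 0.0202. Most genes had no peak in a given library, so such values cannot decide whether the letters pair the libraries. Depth, known only from background pileup, limits what a missing peak can show.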

Other observations

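A further sequence feature of the HES promoters was searched after they had been read, so it is a description without a test. In HES1, HES4 and HES5 a CCAAT box on the opposite strand stood just before the GTGGGAA, with its first base 17, 16 and 14 bases upstream of that of GTGGGAA. All 3 HES promoters with GTGGGAA in the direction of the gene had a CCAAT box so placed within 30 bases. Of the 512 promoters of any gene with GTGGGAA in that direction, 14 had one, or 2.73%, which is 0.0884% of the 15842 promoters searched. The other 11 belonged to genes of varied function, among them APAF1, which activates caspases, FST, which encodes the activin antagonist follistatin, SHC1, a growth factor adaptor, and SPAST, which severs microtubules. Of these 14 promoters, 2 were touched by an N3ICD peak and none by a GFP peak. These were HES4, in N3ICD A and C, and SHC1, in N3ICD B and C. Over all promoters, 5.08% were touched by a peak of at least 1 N3ICD library. The share touched by a GFP peak was not counted, so the lack of GFP peaks at the 14 promoters is description only. The 3 HES genes are paralogs, so their promoters are not independent examples.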
